A study of Caenorhabditis elegans with 32 samples.

Results

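H3K27ac in early embryos lacking MET-2 was compared with H3K27ac in early embryos that still make a catalytically deficient MET-2. This was done window by window along the Caenorhabditis elegans genome. The deletion strain, met-2Δ, carries met-2(n4256) on chromosome III. The catalytically deficient strain, met-2-CD, carries met-2(gw1660), a point mutation in the active site of the SET domain made with CRISPR at the endogenous gene. Both strains were grown at 20 °C, their labels list no other allele, and each is a single strain. An effect of the met-2 allele and an effect of other DNA differences between the strains therefore cannot be told apart. Each gave 3 immunoprecipitated (IP) and 3 input libraries, 12 of the 32 in the series, and WT embryos at 20 °C and WT embryos exposed to 37 °C (HS) gave 3 of each, which entered the fits. WT embryos of an H3K9me2 experiment (2 IP and 2 input libraries at 20 °C) located H3K9me2. The comparison took all 200551 nuclear windows of 500 bp among the 200579 in the table. The question is which H3K27ac differences separate absence of the protein from a deficiency in its catalysis.

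MET-2 is the worm counterpart of mammalian SETDB1 and deposits mono- and dimethylation on lysine 9 of histone H3, the mark of silent heterochromatin on the repeat-rich arms of the chromosomes. The protein accumulates in perinuclear foci with its partners LIN-65 and ARLE-14, and the catalytically deficient protein was described in the study as still forming foci and binding both partners. H3K27ac is placed by acetyltransferases of the p300/CBP family (CBP-1 in worms) at active promoters and enhancers. In pooled embryos, more cells carrying the mark and more of the mark per cell cannot be told apart.

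Depth in the IP ranged from 30633968 to 36470940 reads in met-2Δ and from 21121024 to 29983456 in met-2-CD, and in the inputs from 21180014 to 65133682. Counts were scaled to the mean size of the H3K27ac libraries, 27343814.5 reads, and all levels below are such scaled reads. This makes the library totals equal, so a rise of H3K27ac shared by all windows would not appear in these levels or in shares of reads. From immunofluorescence, the study reports that H3K27ac rose with the deletion of met-2 but not with the point mutation. A difference in total H3K27ac between the strains was not tested here. Log counts of 2 IP libraries correlated with r between 0.869 and 0.932 across strains, against 0.907 to 0.931 within met-2Δ and 0.889 to 0.923 within met-2-CD (across 196112 windows, which are not independent replicates). One library stood apart. Replicate 3 of met-2-CD had a sharper contrast between enriched and depleted windows than the other 5, and results are given with and without it.

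With library totals made equal, few windows separated the strains. Most of those called in the IP and not in the input had more IP reads in met-2Δ, for the most part on autosome arms. At most of these the WT mean lay nearer to met-2-CD, as it did at 57.8% of all tested windows. The windows were chosen on the met-2Δ and met-2-CD libraries, so this nearness is a description. A comparable number of windows was called in the input as well. Of 196112 windows whose scaled input averaged 10 or more, 60 differed between the inputs (0.0306%; 22 higher in met-2Δ, 0.0112%, and 38 lower, 0.0194%; edgeR adjusted p under 0.01), in 33 runs of adjacent windows. With DESeq2 the split was 22 higher and 14 lower. An unadjusted p under 0.05 was found at 4.9% of windows in the input and 4.26% in the IP, and the fitted log2FC was above 0 at 48.7% in the input. In the IP, 56 windows in 29 sites differed (0.0286%), 46 higher in met-2Δ (0.0235%) and 10 lower (0.0051%), and the count was 30 without met-2-CD replicate 3 and 34 without met-2Δ replicate 2. A site is a run of adjacent called windows. The sites named below carry letters, A to G for higher and H, J and K for lower sites without an input call, and L to S for sites with one. Of these 56 windows, 25 in 8 sites were called in the input as well, and there the IP difference cannot be told apart from a difference in DNA content or in how uniquely reads map. Without one library the input count ranged from 30 (met-2-CD replicate 2 left out) to 107 (met-2Δ replicate 3 left out), with 32 without met-2Δ replicate 2 and 33 without met-2Δ replicate 1. Among the 38 windows lower in the met-2Δ input, met-2Δ replicate 1 was the lowest of its 3 replicates in 31 and replicate 3 the highest in 29.

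The input on chromosome III bears on the strain label. On chromosome III, windows from 8376067 to 8377566 (ce10), site O, lay on the chromosome that carries met-2, and 2 of its 3 windows held 0 input reads in met-2Δ. No ce10 annotation was used, so whether they lie in met-2 was not tested. In met-2-CD, the first of these 2 windows held 144, 128 and 149 scaled input reads, and in WT 157, 118 and 147. At the pair, the met-2Δ input was at least 189-fold and 198-fold lower than in met-2-CD (a floor of 3 reads over the 3 libraries). The IP held 0, 2 and 0 unscaled reads at the first window in met-2Δ. The point mutation of met-2-CD leaves no mark in read counts, so its label could not be checked in this way.

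**Figure D1:**
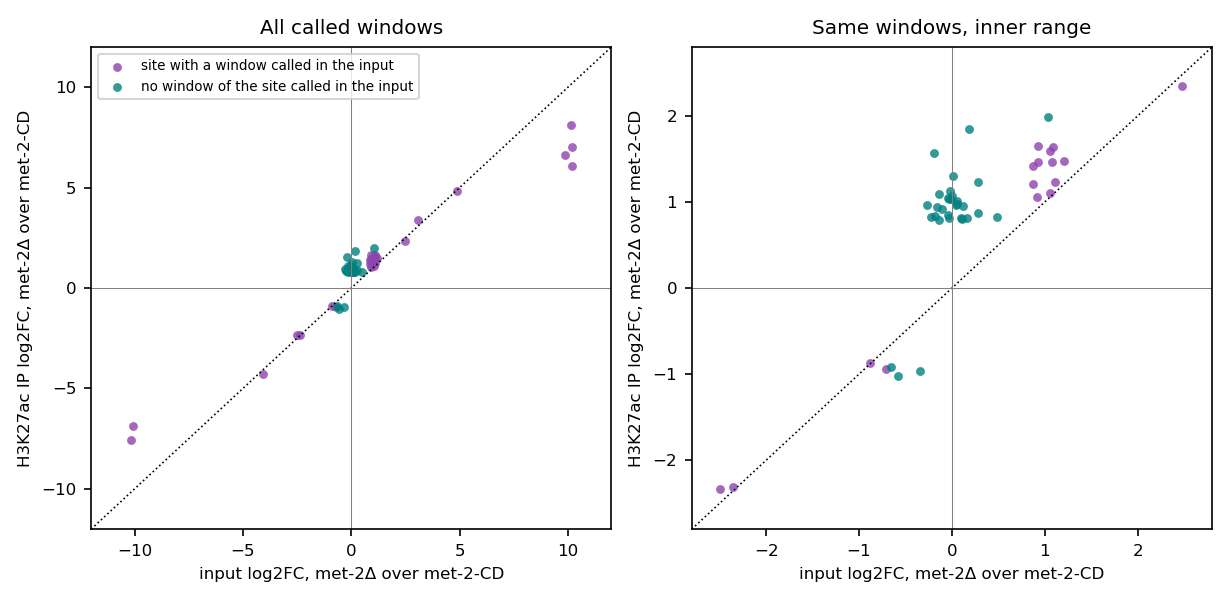
Log2FC (met-2Δ over met-2-CD) of the 56 called windows in the IP (vertical axis) against the input (horizontal axis), over the full range on the left and the inner range on the right, with one point per window. The 25 windows with an input call have the same sign on both axes (fitted values at the ends of the left panel come from windows of sites L and O with 0 input reads in one strain and depend on the prior count), whereas 28 of the other 31 lie above 0 in the IP with an input value between -0.27 and 1.03.

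With those 25 windows set aside, 31 windows in 21 sites differed in the IP without an input call, and 28 of them, in 18 sites, were higher in met-2Δ. Their log2FC lay between 0.79 and 1.99 with a median of 0.96, while the median over all tested windows was 0.04 and the 1st and 99th percentiles were -0.45 and 0.55. The median input log2FC of the 28 windows was -0.01. Median IP levels at these windows were 205, 227 and 199.9 reads in the met-2Δ replicates and 113, 114 and 110.0 in the met-2-CD replicates, and WT held 117, 125 and 112. Relative to input, the median log2 ratio was 0.70, 0.72 and 0.54 in met-2Δ and -0.24, -0.26 and -0.23 in met-2-CD, while the 6 libraries had medians between -0.42 and -0.12 over all tested windows. The windows were called on these same IP libraries, so the separation of the strains here describes the selection. Over all tested windows, every met-2Δ replicate was above every met-2-CD replicate in 6.8% and below in 3.31%, and after division by input in 6.12% and 3.13%. At the 31 called windows, the replicates of the 2 strains did not overlap in the IP, and after division by input they did not overlap at 27.

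These calls depended on single libraries. Of the 31 windows, 7 were also called without met-2-CD replicate 3, 12 without met-2Δ replicate 2, 13 without met-2-CD replicate 2, 17 without met-2-CD replicate 1, 18 without met-2Δ replicate 1 and 21 without met-2Δ replicate 3. Only 4 were called in all 6 such fits and 5 in none of them, whereas 17 of the 25 windows with an input call were called in all 6. A test of IP against input within one model called 5 windows in the whole genome (0.00255%; 3.49% had an unadjusted p under 0.05), all of them among the 31.

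Of the 28 higher windows, 18 lay on right arms and 8 on left arms of autosomes, taken as the outer parts when each autosome is divided into 3 equal parts, and 2 lay on the X chromosome. The autosome centres held 0. Of all tested windows, 27.39% lay on right arms, 27.18% on left arms, 17.82% on the X chromosome and 27.61% in centres. Chromosome V held 10 (20.6% of tested windows), II held 9 (15.3%), I held 5 (15.1%), IV and X held 2 each and III held 0. Adjacent windows of a site are counted separately in these numbers. Sites A, D and E held 3, 2 and 4 of the windows on V, and sites B and G held 3 and 2 of those on II. Each window on I was a site of its own, so the order of the chromosomes by windows is not an order by sites. Of the 28, 7 overlapped an H3K27ac region (10.56% of tested windows did) and 5 an H3K9me2 domain of WT embryos (9.48% of tested windows). A window high in met-2Δ could enter an H3K27ac region through the met-2Δ libraries alone, so the overlap with regions is not independent of the choice of windows. An H3K9me2 enrichment of at least 1 on the log2 scale in WT was found at 8 of the 28 and at 16.74% of tested windows. The WT libraries of the H3K9me2 experiment lacked reads at some windows that WT of the H3K27ac experiment covered, and whether both used the same WT strain was not tested.

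**Figure D2:**
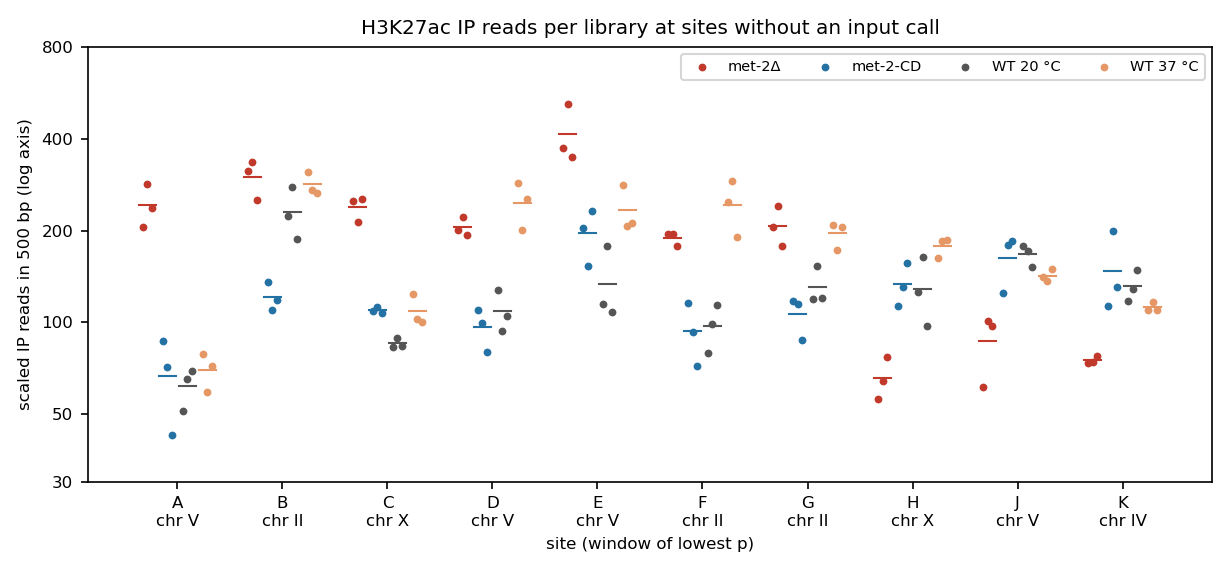
Scaled IP reads in the 500-bp window of lowest p (log axis) at the 10 named sites without an input call, one point per replicate for met-2Δ, met-2-CD, WT and WT at 37 °C, and a bar at each mean. At sites A to G the met-2Δ points lie above all met-2-CD points, and at sites H, J and K below them.

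Site A, on the right arm of chromosome V from 16927404 to 16928903, had the lowest p of the sites without an input call. Its central window (16927904 to 16928403) held 205, 285 and 237 IP reads in met-2Δ, compared with 86.6, 71.2 and 42.8 in met-2-CD and 51.2, 65.1 and 69.0 in WT. The lowest met-2Δ replicate was above every met-2-CD and WT replicate, and the 2 latter groups overlapped. The log2FC was 1.85 (SE 0.20, edgeR adjusted p = 8.5e-13), and the flanking windows had 1.57 and 1.23. The met-2Δ input held 131 ± 4.18 reads and the met-2-CD input 115 ± 6.58 (SD, n = 3), and the difference beyond input was 1.66 (edgeR adjusted p = 0.00031). Site A was called in all 6 fits with one replicate left out, with a log2FC between 1.60 and 2.11. One of its 3 windows lay in an H3K9me2 domain, with a WT H3K9me2 enrichment of 1.66.

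Site B, on the left arm of chromosome II from 1930006 to 1931505, differed from the others in its relation to WT. Its central window (1930506 to 1931005) held 313, 335 and 252 IP reads in met-2Δ, compared with 136, 110.0 and 118 in met-2-CD and 224, 279 and 187 in WT. Here the met-2-CD replicates were the low group, below every replicate of the other genotypes, while met-2Δ and WT overlapped. The log2FC between the mutants was 1.30 (SE 0.18, edgeR adjusted p = 1.3e-07). Against WT, it was -0.91 in met-2-CD (edgeR adjusted p = 0.0096) and 0.39 in met-2Δ (edgeR adjusted p = 0.54). The input was 146 ± 3.72 and 144 ± 18.1 (SD, n = 3), the difference beyond input was 1.28 (edgeR adjusted p = 0.0053), and the site was called in all 6 fits with one replicate left out (log2FC between 1.21 and 1.41). A further called window lay 1000 bp to its left, with a log2FC of 0.95.

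Site C, near the left end of the X chromosome from 122737 to 123736, was the third whose call survived every omission. The window from 123237 to 123736 held 249.7, 213 and 254 IP reads in met-2Δ, compared with 109, 113 and 107 in met-2-CD and 83.2, 89.1 and 83.7 in WT. The 3 genotypes did not overlap, with met-2-CD in between. The log2FC between the mutants was 1.13 (SE 0.16, edgeR adjusted p = 9.9e-07), against an input log2FC of -0.02. Met-2-CD itself was not called against WT (0.36, edgeR adjusted p = 1), whereas met-2Δ had a log2FC of 1.49 against WT.

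Site D, on the right arm of chromosome V from 17654901 to 17655900, held 201, 222 and 194 IP reads in met-2Δ in its first window, against 109, 99.7 and 79.6 in met-2-CD and 128, 93.4 and 105 in WT. Both other genotypes lay below every met-2Δ replicate and overlapped each other. The log2FC of 1.09 (SE 0.17, edgeR adjusted p = 5.9e-06) became 0.97 without met-2-CD replicate 3 (edgeR adjusted p = 0.013), which missed the threshold. The input log2FC was -0.14, and the difference beyond input was 1.24 (edgeR adjusted p = 0.0053).

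Site E was the widest of the sites without an input call, 4 windows on chromosome V from 15590409 to 15592408 with a log2FC of 0.83, 1.04, 1.07 and 0.88. The third window (15591409 to 15591908) held 372, 522 and 348 IP reads in met-2Δ, compared with 204, 153 and 232 in met-2-CD and 115, 178 and 108 in WT. In this window met-2Δ was above both groups in every replicate, and met-2-CD overlapped WT. Its input was 140.5 ± 7.29 and 140.0 ± 12.3 (SD, n = 3). The call was lost without met-2Δ replicate 2 (edgeR adjusted p = 0.033) and without met-2-CD replicate 2 (edgeR adjusted p = 0.028), and held without met-2-CD replicate 3 (log2FC 1.20, edgeR adjusted p = 0.00045). TMM and DESeq2 also ended it (adjusted p = 0.014 and 0.029).

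Sites F and G had a smaller log2FC than sites A to E at the window of lowest p. Site F was called in 5 and site G in 4 of the 6 fits with one replicate left out. Site F, a window on chromosome II from 2697002 to 2697501 inside an H3K9me2 domain (WT enrichment 1.76), held 195, 195 and 179 IP reads in met-2Δ and 116, 93.2 and 71.7 in met-2-CD, with 79.4, 99.0 and 114 in WT. Its log2FC of 1.01 (SE 0.17, edgeR adjusted p = 0.0001) became 0.85 without met-2-CD replicate 3 (edgeR adjusted p = 0.099). In WT and met-2-CD the level was below the mean input of 131 reads, and in met-2Δ above its input of 139. Site G, on chromosome II from 12149962 to 12150961, held 205, 240.2 and 178 IP reads in met-2Δ and 118, 115 and 87.6 in met-2-CD in its second window. Its log2FC of 0.96 (SE 0.17, edgeR adjusted p = 0.00018) was not called without met-2Δ replicate 2 (edgeR adjusted p = 0.040) or met-2-CD replicate 3 (edgeR adjusted p = 0.078), and its input log2FC was -0.27. Called windows lay 26000 bp to its right and at 12196462, also higher in met-2Δ.

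Of the sites without an input call, 3 single windows were lower in met-2Δ, and all 3 also had a negative input log2FC. Site H on the X chromosome (164237 to 164736) held 56.2, 64.2 and 76.8 IP reads in met-2Δ, compared with 113, 131 and 156 in met-2-CD and 125, 164 and 97.3 in WT. The met-2Δ replicates were below both other groups, which overlapped. The log2FC was -1.02 (SE 0.19, edgeR adjusted p = 0.00091) in the IP and -0.58 in the input, and the IP call was lost without met-2-CD replicate 3 (-0.89, edgeR adjusted p = 0.16) and without met-2Δ replicate 1 (edgeR adjusted p = 0.062) or replicate 2 (edgeR adjusted p = 0.027). At site J, in the centre of chromosome V (11327428 to 11327927), met-2Δ held 61.5, 101 and 97.3 IP reads and met-2-CD 125, 179 and 185, an IP log2FC of -0.91 beside an input log2FC of -0.66. This call was lost without met-2Δ replicate 1 (edgeR adjusted p = 0.49), met-2-CD replicate 2 (edgeR adjusted p = 0.054) or met-2-CD replicate 3 (-0.80, edgeR adjusted p = 0.23). Site K on chromosome IV (2139835 to 2140334) held 73.5, 73.9 and 77.7 against 113, 199 and 130.4, an IP log2FC of -0.96 beside -0.34 in the input, and it was not called in 5 of the 6 fits with one replicate left out, that without met-2-CD replicate 1 being the exception (edgeR adjusted p = 0.61 when met-2-CD replicate 2 was omitted, 0.023 to 0.082 in the others). None of the 3 was called as a difference beyond input.

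Set beside WT, the met-2-CD level was the nearer one at most of the higher windows. These values share the met-2Δ libraries with the comparison that chose the windows, so they are given as a description. The WT mean was nearer to met-2-CD than to met-2Δ at 24 of the 28, as it was at 57.8% of all tested windows. At the 28, the median log2FC against WT was 0.97 in met-2Δ (0.28 to 1.97) and -0.05 in met-2-CD (-0.94 to 0.93). In met-2Δ, 17 of the 28 were called higher than WT, where 0.145% of tested windows were. In met-2-CD, the one window of the 28 that was called against WT was that of site B, which was lower (0.0051% of tested windows were lower and 0.0133% higher). HS embryos were higher than WT at 20 °C at 13 of the 28, where 4.2% of tested windows were.

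The sites with an input call began with a stretch nearly without reads in met-2-CD. On chromosome V from 5079954 to 5082953 (site L, 6 windows called in the IP), summed input reads were 742, 735 and 772 in met-2Δ and 702, 648 and 680 in WT, but 10.9, 15.0 and 2.15 in met-2-CD. The summed IP reads behaved alike, with 678, 672 and 664 in met-2Δ and 9.12, 18.1 and 9.95 in met-2-CD. In the 5 windows of the input run with 0 met-2-CD input reads, the met-2Δ input was at least 17.8-fold to 137-fold higher. One of these windows is also the called H3K27ac region with the lowest p-value, and its IP count does not measure acetylation in met-2-CD.

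A block with extra reads in met-2Δ lay on the right arm of chromosome V. From 17254402 to 17260401 (12 windows, which contain site N), the summed input was 2744, 2771 and 2723 reads in met-2Δ and 1325, 1449 and 1314 in met-2-CD, a 2.01-fold ratio with no overlap between the groups. The summed IP was 2283, 1980.2 and 2325 in met-2Δ and 1011, 950.3 and 665 in met-2-CD, a 2.51-fold ratio. Divided by its own input, the IP was 0.83, 0.71 and 0.85 in met-2Δ and 0.76, 0.66 and 0.51 in met-2-CD, so the groups overlapped once input was taken into account. At site M on chromosome II, the window from 10123470 to 10123969 held 449, 415 and 408 input reads in met-2Δ and 70.7, 67.4 and 89.2 in met-2-CD, and its IP log2FC of 2.35 (edgeR adjusted p = 2.1e-22) stood beside an input log2FC of 2.48.

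The remaining sites with an input call were lower in met-2Δ. At site P on chromosome V (16731905 to 16732404) the log2FC was -4.30 in the IP and -4.07 in the input. At site R on chromosome II (3226500 to 3226999) the values were -2.34 and -2.50. Sites S on chromosome II (9568473 to 9568972) and Q on chromosome IV (9048805 to 9049304) were shallower, with an IP log2FC of -0.87 and -0.94 and an input log2FC of -0.88 and -0.71. In all 4, IP and input moved in the same direction.

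**Figure D3:**
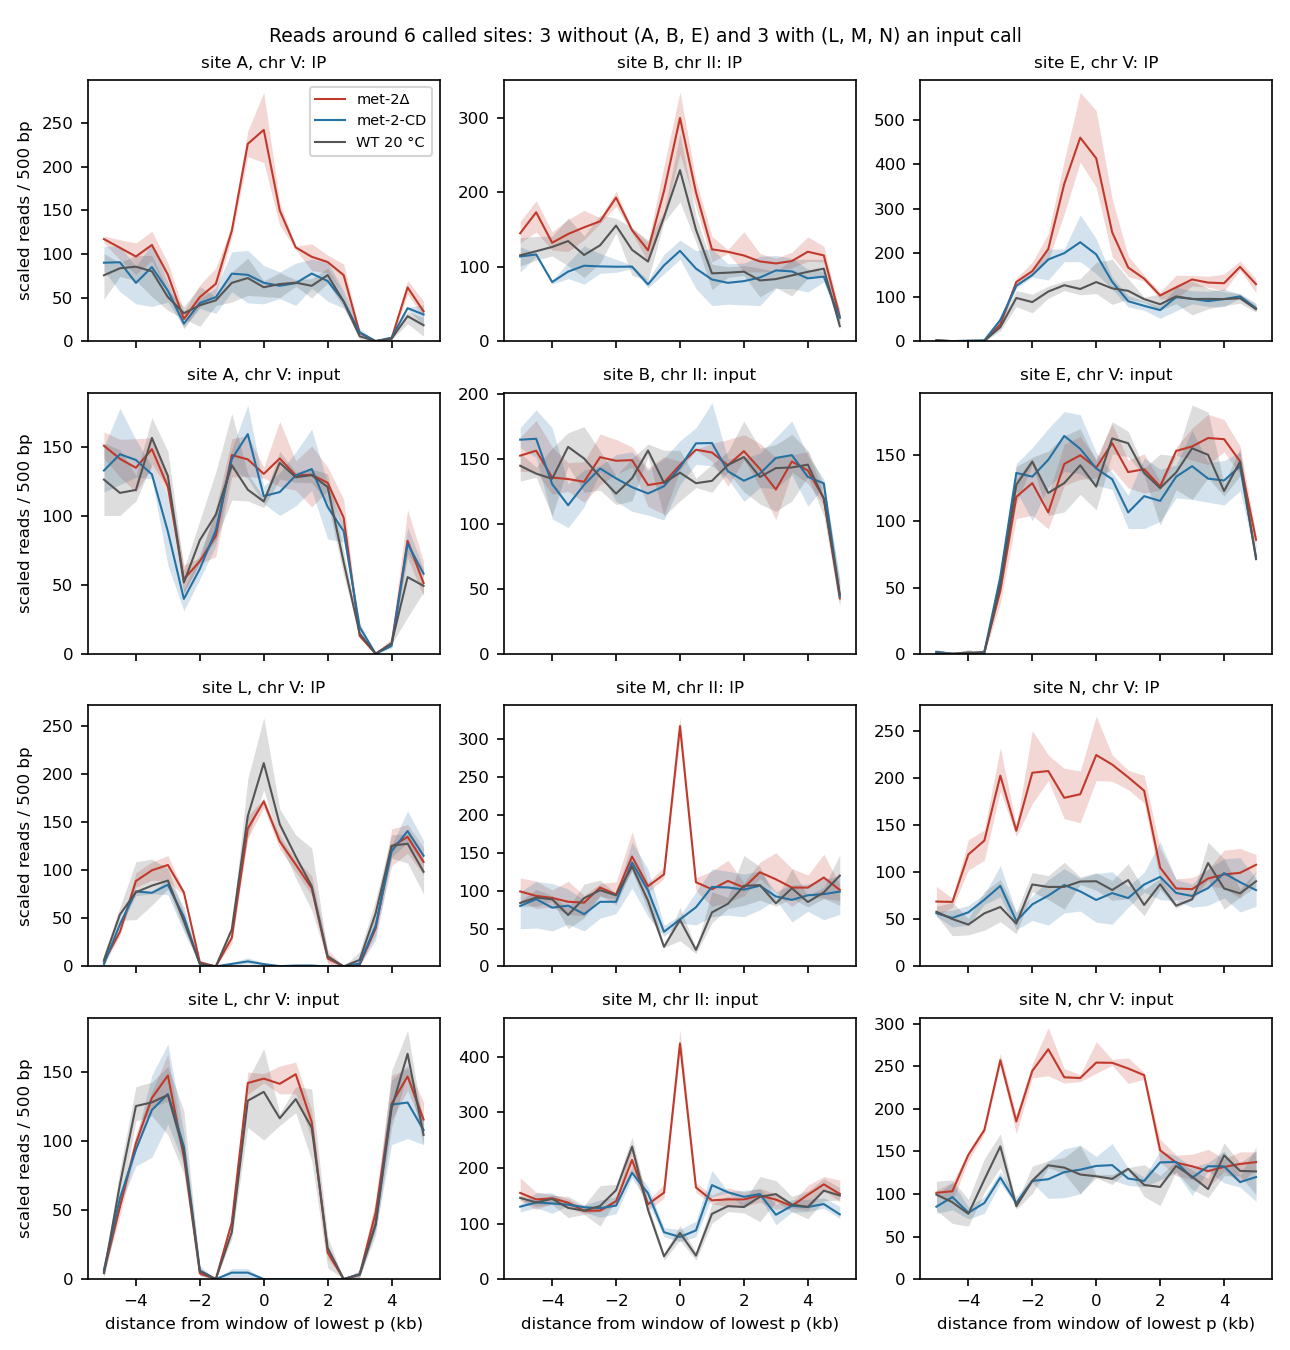
Scaled reads per 500-bp window (vertical axis) against distance from the window of lowest p in kb, with lines for the means of met-2Δ, met-2-CD and WT, bands from the lowest to the highest replicate, and IP and input panels for sites A, B, E, L, M and N. At A, B and E the met-2Δ IP stands above met-2-CD while the inputs run together, and at L, M and N the inputs separate in the same place as the IP.

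Summed over H3K27ac regions, the units closest to peaks, 4 of 5216 differed (0.0767%), all higher in met-2Δ. A region here is a run of windows in which the IP reached 1 or more above input on the log2 scale in 2 or more of the 12 pairs. By edgeR, 0 regions were lower at the adjusted threshold, while 212 had an unadjusted p under 0.05 in that direction and 40 in the other (4.83% together). In DESeq2, 29 regions differed, all higher in met-2Δ. The 4 comprise the window without met-2-CD input reads, regions within sites B and E, and a shallow window on chromosome II. The region within site B held 518, 571 and 417 IP reads in met-2Δ and 253, 208 and 209 in met-2-CD, and that within site E held 1156, 1494 and 1042 against 619, 513 and 727. WT held 349, 434 and 351 at the latter, below every met-2-CD replicate (met-2-CD against WT, log2FC 0.71, SE 0.19). A region could enter through one strain alone, and the region within site E was more than 1 above input on the log2 scale on average in met-2Δ (1230.5 IP against 434 input reads) but not in met-2-CD (619 against 459) or WT (378 against 397), so its call is no independent result on peaks. As a difference beyond input, 3 regions were called (0.0575%), and the regions within sites B and E were 2 of them, with 1.14 and 1.07 (edgeR adjusted p = 0.00052 for both). The other, named after its values were seen, lay on chromosome II from 12175962 to 12176961, next to the called window to the right of site G. It held 643, 734 and 576 IP reads in met-2Δ, compared with 394, 337 and 439 in met-2-CD and 252, 211 and 239.5 in WT, 3 groups that did not overlap. Its IP log2FC was 0.74 (SE 0.18, edgeR adjusted p = 0.037), and the difference beyond input was 1.00 (edgeR adjusted p = 0.0041). The last, on chromosome II from 12196462 to 12196961, rested on 51.7, 39.6 and 49.1 reads against 19.2, 10.4 and 4.98, and its input held 37.1 ± 16.3 reads for the deletion against 17.9 ± 4.95 for met-2-CD (SD, n = 3). It was not called without met-2-CD replicate 3 (log2FC 1.61, edgeR adjusted p = 0.096), met-2-CD replicate 2 (0.013) or met-2Δ replicate 1 (0.012), nor beyond input (0.95, edgeR adjusted p = 0.85). The region within site E was not called without met-2Δ replicate 2 (0.83, edgeR adjusted p = 0.035) or met-2-CD replicate 2 (0.87, edgeR adjusted p = 0.013), the second of which left 2 regions in all.

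Of 9917 bins of 10 kb, 4 differed (0.0403%), 3 higher (0.0303%) and 1 lower in met-2Δ (0.0101%), and 3.81% had an unadjusted p under 0.05 and 59.1% a log2FC above 0. With TMM normalization, 4 bins were called and all were higher, and DESeq2 gave 11 higher and 2 lower. The bin with the lowest p, on chromosome V from 15589909 to 15599908, starts just before site E and held 3429, 3886 and 3238 IP reads in met-2Δ, compared with 2221, 2162 and 2292 in met-2-CD and 1787, 2078 and 1923 in WT. Its log2FC was 0.66 (SE 0.08, edgeR adjusted p = 2.8e-07), beside inputs of 2478 ± 36.2 and 2378 ± 140.4 (SD, n = 3), and it was called in all 6 fits with one replicate left out. The difference beyond input was 0.60 (edgeR adjusted p = 0.017). On chromosome II, the bin from 1919506 to 1929505, just left of site B, held 3310.1, 3025 and 3220.5 against 2264, 2297 and 2094. Its log2FC was 0.52 (edgeR adjusted p = 0.00015), and 0.48 without met-2-CD replicate 3 (edgeR adjusted p = 0.072). Its input was also higher in met-2Δ, with 3008, 2941 and 2887 reads against 2725, 2672 and 2840 in met-2-CD, which did not overlap. The difference beyond input was 0.42 (edgeR adjusted p = 0.84). The third higher bin, on chromosome V from 17249902 to 17259901, overlaps site N, where the input was 3651 ± 8.90 against 2313 ± 63.1 (SD, n = 3).

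The lower bin lay on the X chromosome from 159737 to 169736, around site H. It held 1790.4, 2105 and 1829.8 IP reads in met-2Δ, compared with 2285, 2442 and 2762 in met-2-CD and 2418, 2378 and 2222 in WT. The met-2Δ replicates were below both other groups, and the log2FC was -0.39 (SE 0.07, edgeR adjusted p = 0.0042). It was not called without met-2-CD replicate 3 (-0.31, edgeR adjusted p = 0.45), met-2Δ replicate 1 (0.085) or met-2Δ replicate 3 (0.042), nor with TMM (-0.42, edgeR adjusted p = 0.018), and its inputs were 1422 ± 113 for the deletion and 1571 ± 139 for met-2-CD (SD, n = 3). Over all bins, 2 were called without met-2-CD replicate 3 and 7 without met-2-CD replicate 2.

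Across the genome, the strain means differed in contrast, and this depended on met-2-CD replicate 3. When windows were grouped by their mean log2 ratio of IP to input over the 12 pairs of all 4 H3K27ac groups, the median difference (met-2Δ minus met-2-CD) ran from 0.20 in the most depleted windows through 0.06 between -0.5 and 0 to -0.22 in windows with a ratio of 2 and over. Without met-2-CD replicate 3, every group had a median between -0.02 and 0.003. That replicate alone deviated from the met-2Δ mean by -0.64 in the most depleted group and 0.65 in the most enriched, whereas replicates 1 and 2 stayed between -0.02 and 0.06. The met-2Δ replicates also differed among themselves. Against the met-2-CD mean, they stood at 0.29, -0.03 and 0.38 in the most depleted group and at -0.28, 0.11 and -0.47 in the most enriched, with replicate 2 apart from the others. The median log2FC of the 5216 regions, -0.18, is part of this pattern, and 12.2% of regions had a value above 0, compared with 57.5% of windows. With TMM normalization, the medians were -0.005 for regions and -0.002 for windows.

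**Figure D4:**
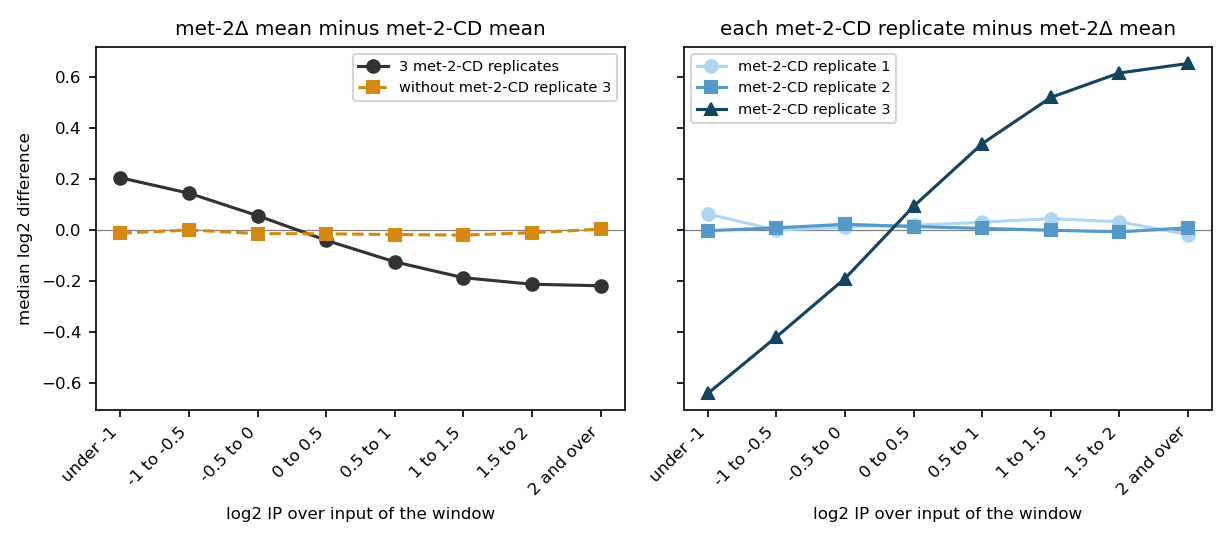
Median log2 difference in scaled IP reads (vertical axes) of windows grouped by their log2 ratio of IP to input (horizontal axes), for the met-2Δ mean minus the met-2-CD mean (left) and for each met-2-CD replicate minus the met-2Δ mean (right). The left line runs from 0.20 to -0.22 with all replicates and stays within -0.02 and 0.003 without met-2-CD replicate 3, which alone leaves 0 on the right.

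Shares of reads were compared in 5 large classes, and the IP shares of the strains overlapped in all but the autosome centres. H3K27ac regions held 22.1%, 26.1% and 19.8% of nuclear IP reads in met-2Δ and 22.8%, 22.3% and 31.8% in met-2-CD, with WT at 27.8%, 25.4% and 23.8%. The groups overlapped, and the difference of -2.97 percentage points (p = 0.5, two-sided exact permutation test, for which the smallest possible p is 0.1) became 0.088 without met-2-CD replicate 3. The share in the H3K9me2 domains of WT was 8.76%, 8.96% and 8.66% in met-2Δ and 8.87%, 9.01% and 8.53% in met-2-CD (difference -0.011, exact p = 1), a range in which the 2 groups were interleaved. The autosome arms held 53.2% ± 0.487 and 52.6% ± 0.593 of the IP reads (SD, n = 3; exact p = 0.3), a difference of 0.58 points with all replicates and 0.30 without met-2-CD replicate 3. The autosome centres held 29.8%, 29.7% and 29.7% in met-2Δ and 30.1%, 29.9% and 31.0% in met-2-CD, which did not overlap (difference -0.58 points, exact p = 0.1, and -0.23 points without met-2-CD replicate 3). The X chromosome held 17.1% in both (difference -0.0043, exact p = 1). In the inputs, the share in regions was slightly lower in the deletion (difference -0.16 points) and the share in domains was 8.93% against 9.07%, with no overlap between the strains in either (exact p = 0.1 for both). Adjusted over the 10 tests in IP and input, the p-values of the IP shares were 0.33 for the centres, 0.71 for regions and arms and 1 for the others, and none of the 10 could pass a threshold of 0.05 with 3 libraries against 3.

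**Figure D5:**
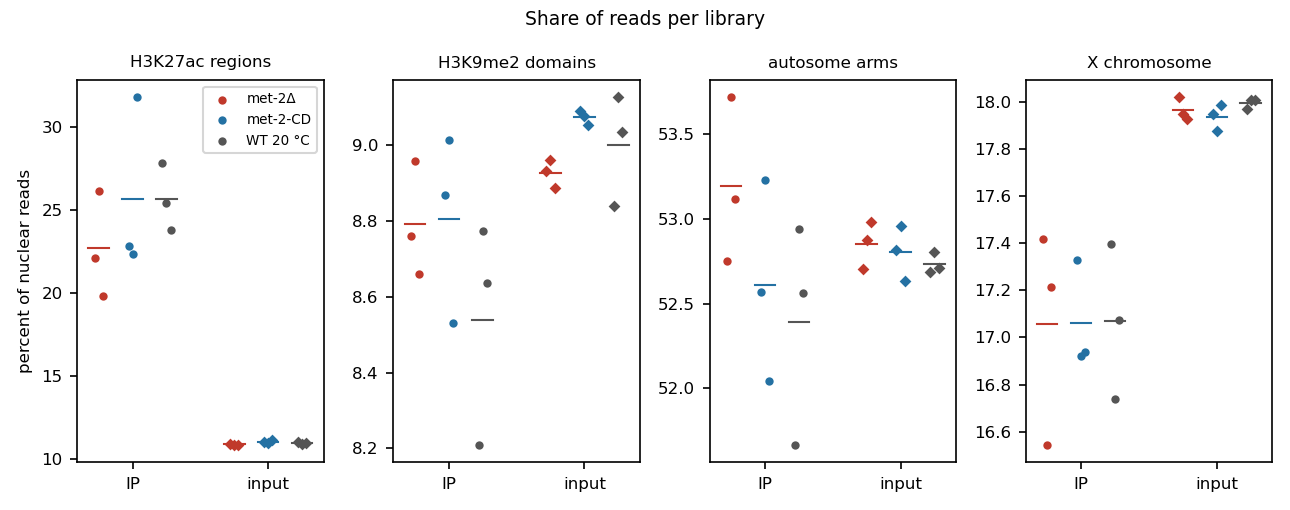
Percent of nuclear reads per library (vertical axis) in each class of windows, with IP and input side by side, one point per replicate of met-2Δ, met-2-CD and WT and a bar at each mean. The vertical axes do not start at 0 and differ between panels. The IP points of the mutants overlap in H3K27ac regions, H3K9me2 domains, autosome arms and the X chromosome, and met-2-CD replicate 3 is the high point of 31.8% in regions.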

How the data were processed

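Per the deposited table, values are unnormalized counts of uniquely mapped reads per 500-bp window. The authors aligned paired-end reads to ce10 with bowtie through QuasR and counted both mates, so reads are not independent molecules. Groups came from the strain labels. The labels mention both 2 and 3 replicates, and 3 per H3K27ac group were deposited, which the study describes as biological replicates. The p-values measure the spread between these samples.

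Counts were scaled by column totals, with a pseudocount of 2 before log2 ratios of IP to input. Windows, H3K27ac regions, 10-kb bins and inputs were tested with edgeR 4.0.16 (quasi-likelihood, R 4.3.3, all 12 H3K27ac IP or 12 input libraries, Benjamini-Hochberg adjustment, threshold 0.01). IP against input was an interaction term, fitted without a term for the pairing of each IP with its own input. H3K9me2 domains were runs of 3 or more windows in which H3K9me2 exceeded input by 1 or more on the log2 scale in WT at 20 °C. Alternatives were TMM, DESeq2 1.42.0 (with a mean dispersion for windows in the input), other thresholds, a replicate block and leaving out each replicate. Data handling and plots used data.table (version 1.17.8), Python 3.11.15, numpy 2.4.6, pandas 2.3.3 and matplotlib 3.10.9. The pipeline was tested on simulated data.

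The named sites were the 10 higher and 10 lower sites of lowest p with no overlap between replicates (8 lower were called), all called regions and bins, and input runs with 0 reads in one strain. The comparison and these lists were chosen with earlier results of these data known. Genes at the sites and MACS2 peaks were not used here.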

Additional observations from a re-analysis of the deposited data

How the results depend on the processing

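Leaving out 1 replicate gave 30 to 48 windows in place of 56, 10 to 24 of those called in the IP and not in the input in place of 31, 2 to 4 regions, 2 to 7 bins and 30 to 107 input windows. The 30 windows, and the 10 of them without an input call, are those without met-2-CD replicate 3. The share differences (points) ran from -4.70 to 0.088 in regions, -0.149 to 0.0936 in domains, -0.184 to 0.253 on the X chromosome and 0.296 to 0.888 on the arms. In domains, the ratio of IP share to input share differed by 0.0147, and the IP share at a domain threshold of 1.5 by 0.0265 points, both opposite in sign to the difference of -0.011 points.

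With TMM, 44 windows (19 without an input call) and 9 regions differed, and with DESeq2 59 windows (30), 29 regions, 13 bins and 36 input windows. The 6 mutant libraries alone gave 78 windows (49) and 11 bins. An adjusted p of 0.05 gave 91 windows (60), 7 bins and 92 input windows. With regions defined at a log2 ratio of 0.5 in place of 1, 20 regions were called, and at 1.5, 1 was. IP against input gave 5 windows (5) and 0 bins (231 unadjusted, 13 in DESeq2 on the IP). There, 6 values changed sign: site M (-0.13), site R (0.14), site S (0.0052), and, set by the prior count, site O (2.57), site L and its region (-4.11 each). Replicates of the 2 mutants with the same number were no more alike across regions than others (r = 0.13, 0.02 and -0.40, against -0.33 to 0.25). Whether they shared a batch was not tested. A replicate block gave 68 windows, 41 without an input call, 4 regions, 5 bins and 61 input windows. Of the other comparisons of single sites, regions and bins with an alternative, 389 kept their call and 136 lost it, the cause of which was not tested.

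Over all tested windows the median SE of the log2FC was 0.20, and the smallest called log2FC without an input call among the higher windows was 0.79. Smaller differences may have been missed at this depth.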

Other observations

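Heat-stressed WT embryos, which still carry MET-2, were not contrasted with the mutants. Their libraries did enter the fits that called the windows, through the shared estimate of the spread. Heat-stressed WT embryos were higher than WT at 20 °C at many of the same windows. Of the 28 windows that were higher in the deletion without an input call, 13 were also higher in WT at 37 °C. The median log2FC with heat at the 28 was 0.47, with 23 above 0, and over all tested windows it was -0.18. At site D, WT at 37 °C held 286, 200.4 and 253 IP reads (log2FC 1.18, edgeR adjusted p = 1.4e-08), and at site F it held 248, 291 and 191 (1.31, edgeR adjusted p = 7.1e-10). Site A did not follow this pattern, with 78.5, 59.0 and 72.0. The windows were chosen on met-2Δ libraries that these values do not use, but the heat comparison shares the WT libraries with those above.

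Several stretches without reads also differed between the 2 experiments, and whether their WT strains were the same was not tested. The 5 windows on chromosome V from 5080954 to 5083453 that held 0 input reads in met-2-CD also held 0 reads in all 8 WT libraries of the H3K9me2 experiment, while the first of them held 298 input reads in WT and 612 in met-2Δ in the H3K27ac experiment. On chromosome II from 527012 to 528011, 2 windows held 0 reads in the same 8 libraries and between 314 and 623 input reads in every H3K27ac group. The windows on chromosome III without met-2Δ input reads held 602 and 670 input reads in the H3K9me2 experiment.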
